A study of Mus musculus with 12 samples.

Results

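Interferon response and MHC class I genes were followed as a module of 38 members in sorted mouse mammary epithelial cells. The members are a fixed list of interferon-induced genes and genes of MHC class I antigen presentation, chosen with earlier results of these data known. Each was read from the entry of the deposited count table that names its symbol and a single locus, and all 38 were found among the 20114 such entries. Where several entries name a symbol, the rule takes the one with the highest mean count, and it uses no other measured value. Of the 38, 37 passed the default low-count filter and were tested, while Mx1 did not pass.

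RNA of 12 libraries was sequenced, 4 in each of 3 groups, from females aged 9 weeks on a mixed 129X1/SvJ, C57BL/6 and Swiss Webster background. Recombined cells came from mT-mG/SmoM2;MMTV-Cre mice and were sorted as EGFP-positive, SmoM2-positive cells. Unrecombined cells came from mice of the same genotype but were tdTomato-positive and SmoM2-negative. Wild type cells came from mT-mG/SmoM2;+ mice, which carry the reporter and the SmoM2 allele without Cre, so all 3 groups share both alleles. SmoM2 is an activated form of Smoothened, the transmembrane transducer of Hedgehog signaling, and mT-mG is a reporter that switches from red to green when Cre recombines it. Cre is driven by the MMTV promoter, which is active in mammary and some other secretory epithelia. Because every green cell also carries active SmoM2, the effects of SmoM2, recombination and sorted color cannot be told apart. The labels do not say which animals, or how many, gave each library, so p-values measure only the spread between these libraries.

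Interferons are secreted proteins that warn cells of infection. They bind surface receptors whose JAK kinases activate transcription factors in the cell. A complex that holds Stat2 and Irf9 binds the interferon-stimulated response element (ISRE) of target promoters, while interferon gamma acts mainly through the gamma-activated site (GAS). The induced genes include sensors of foreign nucleic acid, enzymes that stop translation or degrade RNA, GTPases that act on pathogens, and the machinery that loads peptides on MHC class I molecules. Epithelial cells keep a low basal level of many of these genes without infection.

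Promoters of the members were searched for the cores of the ISRE and the GAS. RefSeq promoters of the GRCm38.p6 build, from 250 bases before to 50 bases after the transcription start, matched 28 of the 38 members by symbol. The ISRE core, searched on both strands as GAAA, any 2 bases and GAAA, was present in 13 of these 28 (46.4%), against 3.99% of all 27025 genes with such a promoter. The GAS core, searched as TTCNNNGAA, which reads the same on both strands, was present in 7 of 28 (25%), against 9.55% of all genes. A match is a description of the letters and not a tested site. Stretches around the matches are given for Gbp2, the member past the threshold in both comparisons of recombined cells, for B2m and Rsad2, whose calls depended on the fit, for Isg15 and Ifit1, textbook interferon targets, and for Irf1, which has a GAS core. Capitals mark the matched cores and the letters are in the direction of transcription.
Gbp2 (chr3:142620559-142620658, plus strand): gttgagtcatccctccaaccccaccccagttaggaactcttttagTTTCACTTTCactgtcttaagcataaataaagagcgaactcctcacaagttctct
B2m (chr2:122147503-122147602, plus strand): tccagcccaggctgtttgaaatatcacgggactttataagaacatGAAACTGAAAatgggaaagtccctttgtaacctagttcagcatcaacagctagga
Rsad2 (chr12:26456518-26456617, minus strand): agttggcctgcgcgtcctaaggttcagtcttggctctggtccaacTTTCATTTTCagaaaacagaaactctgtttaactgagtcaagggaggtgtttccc
Isg15 (chr4:156200830-156200941, minus strand): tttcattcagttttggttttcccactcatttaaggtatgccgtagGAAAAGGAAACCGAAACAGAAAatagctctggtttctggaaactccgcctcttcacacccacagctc
Ifit1 (chr19:34640740-34640858, plus strand): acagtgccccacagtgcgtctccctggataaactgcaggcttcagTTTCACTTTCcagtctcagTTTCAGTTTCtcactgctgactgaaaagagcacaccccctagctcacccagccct
Irf1 (chr11:53769879-53769977, plus strand): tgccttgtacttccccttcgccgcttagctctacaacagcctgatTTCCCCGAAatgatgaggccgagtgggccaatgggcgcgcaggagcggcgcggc
Isg15 holds 3 overlapping ISRE cores and Ifit1 holds 2 separate ones.

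**Figure D1:**
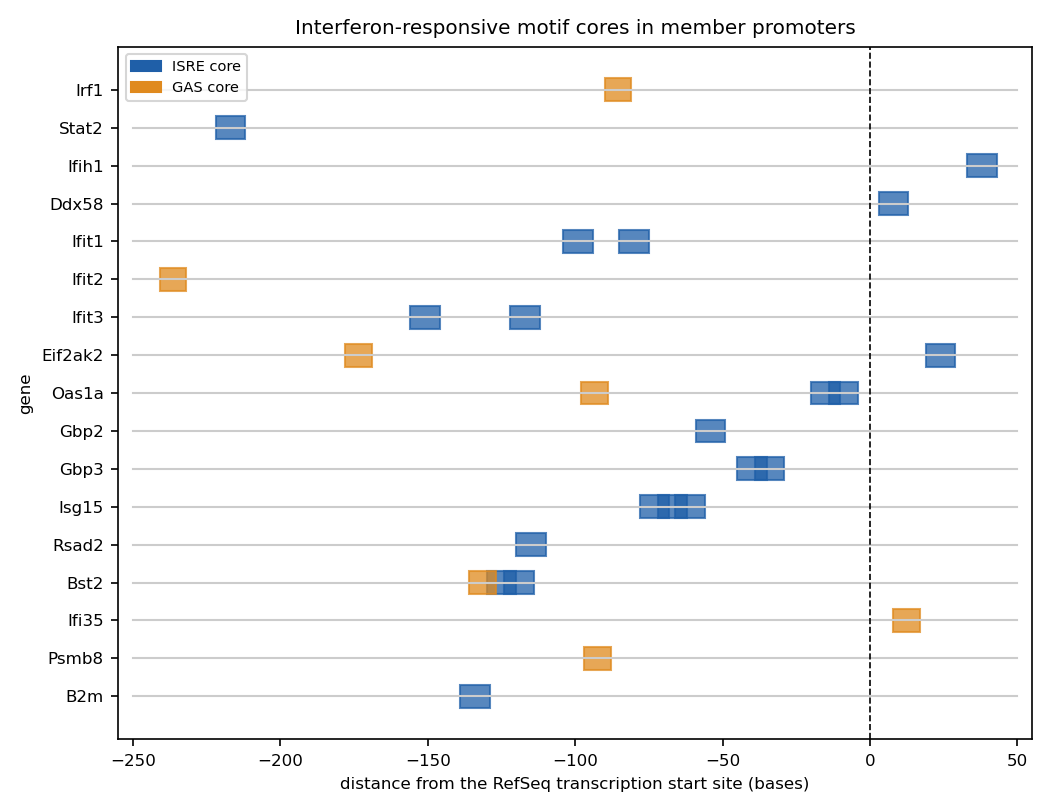
Positions of the ISRE core (blue) and the GAS core (orange) in member promoters, in bases from the RefSeq transcription start site (dashed line), for the members with a match. Most matches lie before the start, and the ISRE cores of Ifih1, Ddx58 and Eif2ak2 and the GAS core of Ifi35 lie after it.

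Total counts lay between 19581993 and 34779433 per library. Levels are given as CPM, counts scaled to the TMM-normalized library size, which are not per gene length, so they are compared between libraries and not between genes. Of the 38 members, 21 had a mean over the 12 libraries under 10 CPM, 4 of these under 1 CPM, 13 had 10 to 100 CPM and 4 had at least 100 CPM. Recombined libraries 3 and 4 had coordinates of -140 and -102 on principal component 1 (31.4% of variance), where the other 10 lay between -30.2 and 48.8, and held 14256 and 14601 detected loci, against at least 15289 elsewhere. Transcripts of salivary gland summed to between 1370 and 96300 CPM in recombined 1 and 2, unrecombined 1 and 2 and wild type 2, and to at most 87.2 CPM in the other 7 libraries. Smo had 49.1 to 74.7 CPM in recombined, 26.8 to 36.8 in unrecombined and 18.7 to 35.2 in wild type libraries, and the Hedgehog target Ptch1 had 133 to 809, 24.8 to 61.3 and 34.5 to 38.1 CPM in the same order of groups. Library numbers in the labels fall in a lower series (libraries 1 and 2 of each group and wild type 3) and a higher one (the other 5 libraries).

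As a group, the members had lower values in recombined than in wild type libraries, but a single one passed the test. Gbp2, a guanylate-binding protein, fell, and 36 did not pass. That count is 2.7% of the 37 members, and 2.38% of the 14039 tested loci were called lower in the same fit (6.55% in either direction), so the share called was near the background. The values themselves leaned to the lower side, with 32 members lower and 5 higher, or 86.5% lower against 51.5% of all loci. Their median log2 fold change was -0.56, against -0.02 over all loci, and the middle of the list reached from -1.07 to -0.32 between its quartiles. At an unadjusted p under 0.05 there were 13 members, each lower (35.1%), against 9.24% of all loci that were lower at this p and 20.6% in either direction. In 8 members all recombined libraries lay below all wild type libraries (21.6%, against 5.91% of all loci). The 8 were Ddx58, Oasl2, Gbp2, Usp18, Trim25, Rsad2, Xaf1 and B2m. The members share libraries and are not independent of each other, and their list was chosen with earlier results of these data known.

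Against unrecombined cells the picture was similar, with the same recombined libraries in both comparisons. Gbp2 alone fell, or 2.7% of the members, against 2.14% of all loci called lower (5.22% in either direction). The median was -0.69, against -0.01 over all loci, and 31 members were lower and 6 higher. There were 15 members at an unadjusted p under 0.05, each lower (40.5%, against 8.1% of all loci lower and 18% in either direction). Recombined libraries did not overlap unrecombined libraries, on the lower side, for 6 members (16.2%, against 5.71% of all loci), namely Oasl2, Usp18, Rsad2, Xaf1, Ifi44 and Psmb9.

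No member passed between unrecombined and wild type cells. In edgeR 0 members passed, as did 0 of the 14039 loci (0%), and 0 members and 541 loci (3.85%) had an unadjusted p under 0.05. DESeq2 called 0 members and 78 loci (0.556%), limma-voom 0 members and 18 loci (0.128%), and its version with library weights 0 members and 61 loci (0.435%). The median of the members was -0.07, with 25 lower and 12 higher values. Ifi44 was the sole member whose groups did not overlap, with 4.41 to 6.12 CPM in unrecombined and 2.59 to 4.28 CPM in wild type libraries (2.7% of members, against 2.86% of loci with all unrecombined libraries higher), and it did not pass the test (log2 0.59 ± 0.428 SE, adjusted p = 1). The 4 smallest p-values belonged to Irf9 (log2 -0.35), Irf1 (-0.36), Oas1a (-0.81) and Ifit1 (0.86), each with an adjusted p of 1. With a median standard error of 0.426 on the log2 scale, small differences were not detectable at this depth and number of libraries.

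How many members passed varied with the fit, while each call was on the lower side. Over wild type, DESeq2 called 10 members lower (4.69% of loci), limma-voom 3 (2.01%) and its version with library weights 1 (1.28%), which was Xaf1. The library number series as a covariate gave 2 (2.19%) and the salivary gland level as a covariate 4 (3.35%). With the 5 libraries that hold salivary gland transcripts left out there were 5 (2.9%), without recombined 1 there were 6 (3.16%), and without recombined 3 and 4 there was 1 (0.802%), again Xaf1. Leaving out the salivary gland libraries keeps recombined 3 and 4 as the only recombined libraries. Over unrecombined cells, DESeq2 called 6 (4.04%), limma-voom 2 (2.28%), its version with library weights 1 (1.91%), again Xaf1, and the covariates 2 each (2.33% for the series and 2.35% for the salivary gland level). The same exclusions gave 3 (1.87%), 5 (2.93%) and 0 (1.22%). The shares in parentheses are of all loci called lower in the same fit.

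**Figure D2:**
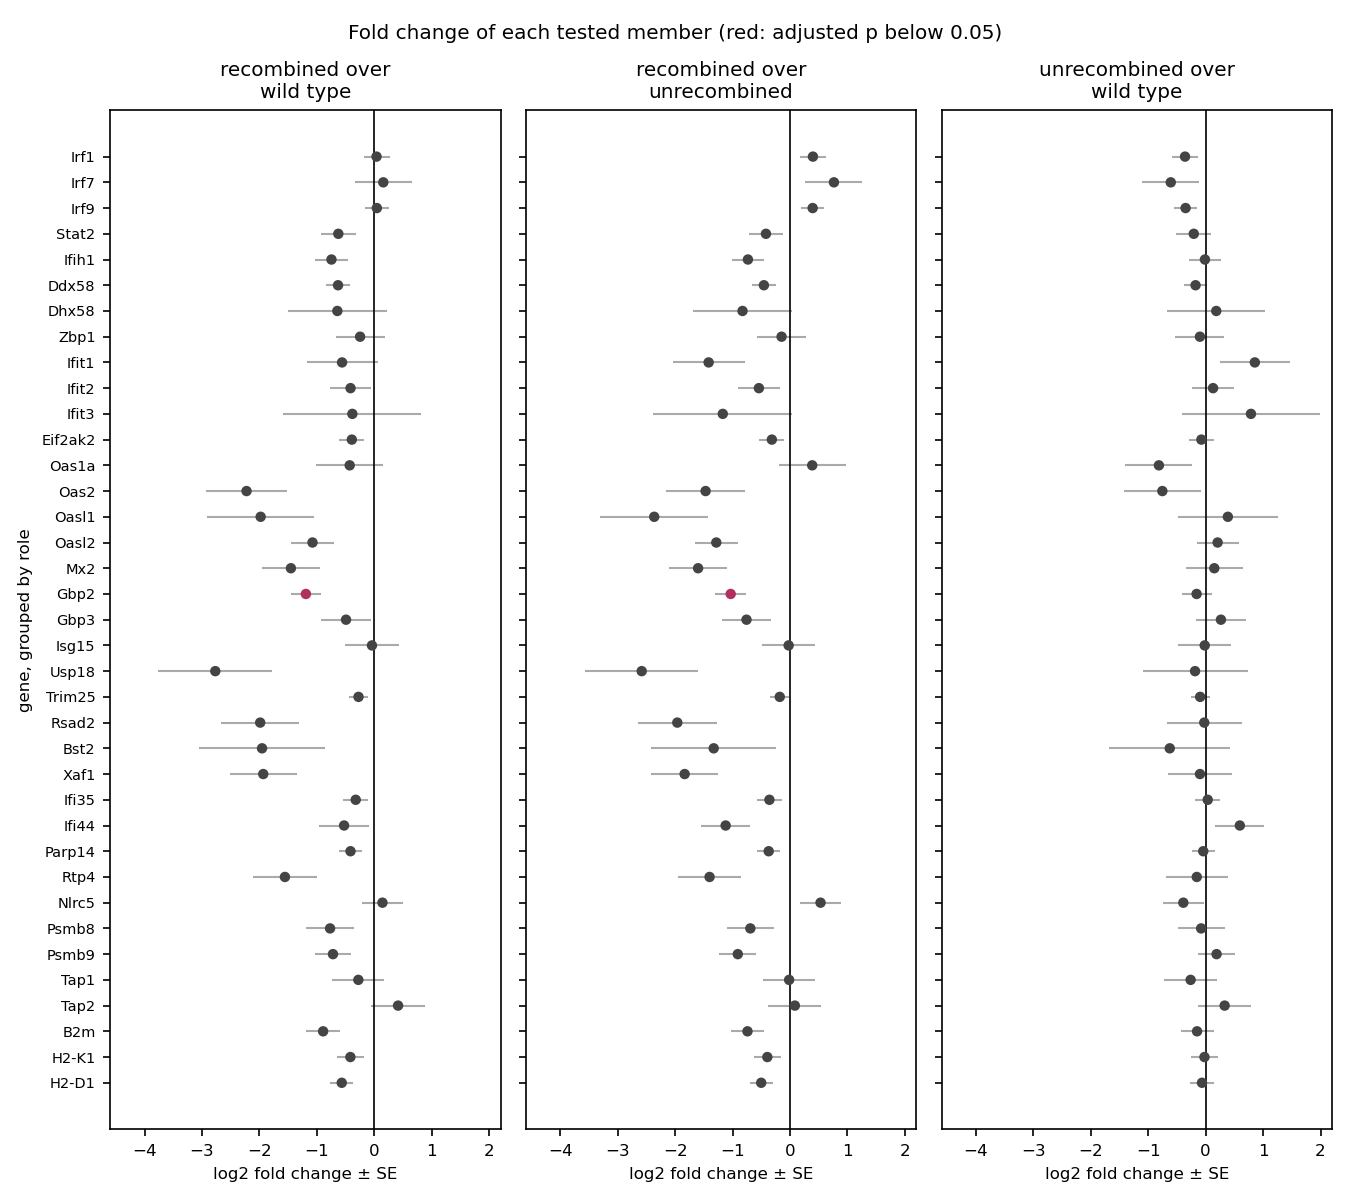
Log2 fold change of the 37 tested members, with bars of 1 SE (edgeR, 12 libraries), for recombined over wild type, recombined over unrecombined and unrecombined over wild type. Points lie mostly left of 0 in the first and second panels and around 0 in the third, and Gbp2 (red) passed in the first and second.

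The recombined libraries differed among themselves more than those of the other groups. The median within-group SD of log2 CPM over the members was 0.696 in recombined, 0.424 in unrecombined and 0.375 in wild type libraries, against 0.596, 0.398 and 0.386 over all tested loci. The median deviation of the 37 members from their mean over the 12 libraries was -0.04, -0.34, -0.86 and -0.51 in recombined libraries 1 to 4. It was 0.18, 0.57, 0.22 and 0.03 in unrecombined and 0.23, 0.23, 0.17 and 0.38 in wild type libraries. All 4 recombined libraries thus lay below the other 8, with recombined 1 close to them and recombined 3 lowest. Recombined 3 was the lowest of the 12 libraries for 19 members, and unrecombined 2 the highest for 9. Deviations of all loci had medians between -0.07 and 0.05 in every library.

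**Figure D3:**
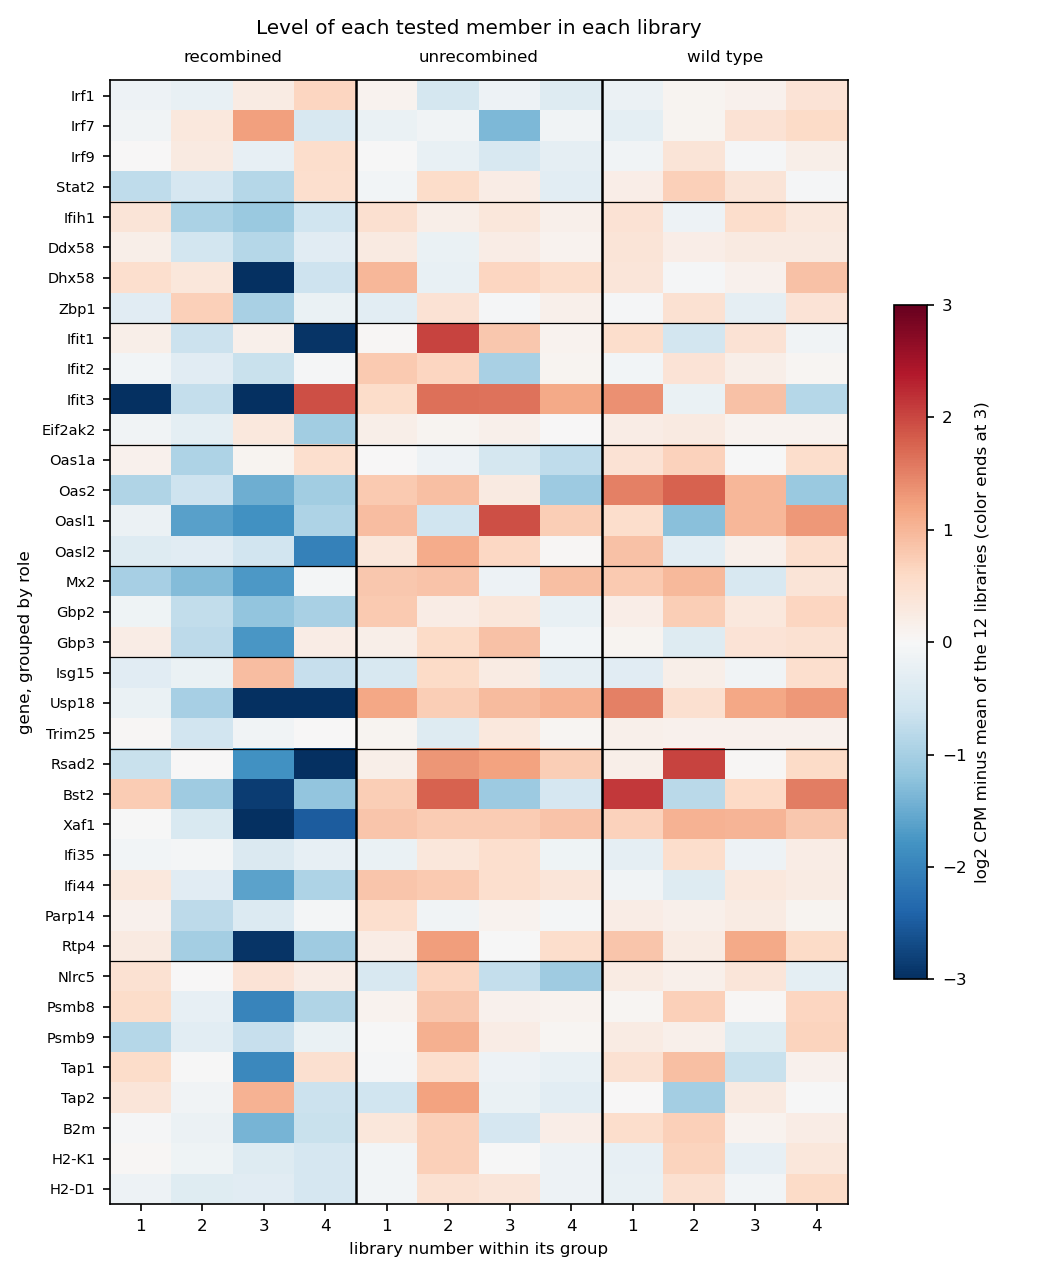
Log2 CPM of each tested member in each library minus its mean over the 12 libraries, with members grouped by role from transcription factors (top) to MHC class I presentation (bottom). Blue cells gather in recombined libraries 2, 3 and 4, while Irf1, Irf7 and Irf9 at the top stay pale or are red in part of them.

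Recombined and unrecombined libraries of the same number were read as pairs. Within the pairs 1 to 4, the median log2 difference of the members, recombined minus unrecombined, was -0.10, -0.98, -1.07 and -0.37. Every pair was on the lower side, and pair 1 was the nearest to 0. In 15 of 37 members (40.5%) all 4 pairs were lower, against 15.7% of all loci, and in Irf9 alone all 4 were higher, against 14.5% of all loci. The replicate number was also entered as a block in an edgeR fit of all 12 libraries, which puts wild type libraries into the same blocks. In that fit 4 members fell against unrecombined cells, namely B2m (log2 -0.76, adjusted p = 0.0105), Gbp2, Oasl2 (-1.34, 0.0467) and Rsad2 (-2.29, 0.0437). That is to be read against 2.96% of all loci called lower in that fit, and a block fit of only these 2 groups called 3 (3.1% of loci). Against wild type cells the block called B2m, Ddx58, Gbp2 and Xaf1, against 3.49% of all loci. Wild type numbers 2, 3 and 4 deviated with their numbers in both other groups, and number 1 did not. Wild type was therefore not read as paired, and the block calls against it are not those of a paired test. Within the lower library number series the median of recombined minus wild type was -0.41 (2 against 3 libraries, 30 of 37 members lower), and within the higher series it was -1 (2 against 1, 34 of 37 lower).

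Among the inducible transcription factors, Irf1, Irf7 and Irf9 were not among the lower members. Irf1, a factor induced early by interferon gamma, had 34.4, 32.6, 45.6 and 60.4 CPM in recombined libraries 1 to 4. Its levels were 41.2, 26.5, 34.3 and 29.1 CPM in unrecombined and 34.1, 40.9, 41.9 and 51.3 CPM in wild type libraries. The groups overlapped, and the log2 fold change of recombined over wild type was 0.04 ± 0.227, a sign that turned with upper quartile scaling (-0.03). Irf9, the DNA-binding partner of Stat2, had 29.5, 34.9, 24.6 and 41.8 CPM in recombined, 29.2, 24.95, 21.0 and 24.3 CPM in unrecombined and 27.3, 37.97, 28.4 and 33.1 CPM in wild type libraries. Each recombined library was above its unrecombined partner, by 0.01 to 0.78 on the log2 scale, and the test gave 0.40 ± 0.205 (adjusted p = 0.335). Over wild type the value was 0.05 ± 0.205, and it also turned with upper quartile scaling (-0.02). Irf7, which amplifies interferon production, had log2 values of 0.16 over wild type and 0.77 over unrecombined cells (adjusted p of 0.901 and 0.459). Stat2, the signal transducer of the ISRE pathway, was the one with lower values (-0.63 over wild type, adjusted p = 0.268). Its recombined levels were 20.1, 23.7 and 18.6 CPM in libraries 1 to 3 and 48.4 CPM in library 4, against 32.8 to 55.2 CPM in wild type.

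The sensors of foreign nucleic acid had lower values in recombined cells, and none passed. Ifih1, the sensor of long double-stranded RNA (MDA5), had 66.4, 26.3, 23.3 and 33.2 CPM in recombined libraries 1 to 4. Unrecombined libraries had 70.3, 57.1, 64.4 and 56.3 CPM and wild type libraries 67.9, 45.8, 73.1 and 63.5 CPM. Recombined 2, 3 and 4 lay below every other library, while recombined 1 lay among the controls. The log2 fold change was -0.74 ± 0.284 over wild type (adjusted p = 0.150) and -0.73 ± 0.284 over unrecombined cells (0.177). Without recombined 1 both passed (-1.18 and -1.17, adjusted p = 0.00313 each), as they did with no other of the 12 libraries left out alone. Without recombined 3 and 4 the value over wild type was -0.45 (edgeR, adjusted p = 0.617). Ddx58, the sensor RIG-I, had 23.8 to 48.8 CPM in recombined and 49.6 to 56.6 CPM in wild type libraries, which did not overlap (-0.63 ± 0.208, adjusted p = 0.0922). It passed against both groups without recombined 1 (-0.86 and -0.68, adjusted p of 0.0116 and 0.0395), and with no other library left out alone. Without recombined 3 and 4 its value over wild type was -0.44 (edgeR, adjusted p = 0.447). Within groups Ifih1 and Ddx58 moved together across the 12 libraries with r of 0.884, the highest among pairs of the 17 members of at least 10 CPM, as a description of libraries that share a depth and a group. Dhx58, the regulator LGP2, is counted in an entry that also names D11lgp2 and AK053109. Zbp1 senses Z-form nucleic acid. The values of Dhx58 and Zbp1 over wild type were -0.64 ± 0.863 and -0.25 ± 0.426.

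The RNA-binding effectors that restrain translation all had lower values in both comparisons of recombined cells, and none passed. Depth was low for the Ifit genes but not for Eif2ak2. Ifit1, which binds viral RNA ends, had 4.45, 2.49, 4.42 and 0.454 CPM in recombined, 4.06, 16.2, 7.01 and 4.24 CPM in unrecombined and 5.72, 2.67, 5.37 and 3.66 CPM in wild type libraries. Unrecombined 2 was the highest and recombined 4 the lowest, and the groups overlapped (-1.42 ± 0.625 over unrecombined, adjusted p = 0.247; -0.56 ± 0.617 over wild type, 0.668). Ifit3 had 102 reads in all recombined libraries together, of which recombined 4 held 88, and 2 recombined libraries had none. Eif2ak2, the kinase PKR, which stops translation on double-stranded RNA, had 51.7, 45.6, 69.3 and 27.2 CPM in recombined libraries. It had 63.1, 59.7, 61.9 and 56.4 CPM in unrecombined and 65.6, 68.0, 60.0 and 60.4 CPM in wild type libraries. Recombined 3 was the highest and recombined 4 the lowest of all 12, around tight control groups (-0.39 ± 0.219 over wild type, adjusted p = 0.343). Ifit2 had -0.41 ± 0.362 over wild type.

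Oligoadenylate synthetases make the second messenger that switches on RNase L. Their median over wild type was -1.53 and over unrecombined cells -1.38, at low depth for all but Oasl2. Oasl2, a synthetase-like protein, had 13.5, 14.1, 12.01 and 4.29 CPM in recombined, 22.6, 38.5, 27.7 and 18.2 CPM in unrecombined and 32.9, 14.4, 19.99 and 25.3 CPM in wild type libraries. All recombined libraries lay below all others, by a small margin to wild type 2. The log2 fold change was -1.28 ± 0.374 over unrecombined cells (adjusted p = 0.0664) and -1.07 ± 0.372 over wild type (0.111). Oas2 had 0.597, 0.733, 0.377 and 0.536 CPM in recombined, 2.06, 2.26, 1.44 and 0.509 CPM in unrecombined and 3.51, 4.18, 2.40 and 0.502 CPM in wild type libraries. The groups overlapped because wild type 4 and unrecombined 4 were as low as recombined libraries (-2.22 ± 0.703 over wild type, adjusted p = 0.0786). Without wild type 4 the difference passed (-2.57, adjusted p = 0.0477), and with each other library left out in turn it did not (edgeR, adjusted p up to 0.196). Oas1a had 1.08, 0.477, 1.02 and 1.40 CPM in recombined, 0.978, 0.867, 0.647 and 0.543 CPM in unrecombined and 1.33, 1.63, 0.960 and 1.43 CPM in wild type libraries. Its groups overlapped (-0.43 ± 0.581 over wild type, a value that was 0.00355 without the salivary gland libraries, and 0.39 ± 0.584 over unrecombined cells), and 11.1% of its reads stood in entries that name several loci, so close copies in the Oas1 cluster may share its counts. Oasl1 had 18 reads in recombined, 94 in unrecombined and 68 in wild type libraries.

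The interferon-induced GTPases held the member that fell. Gbp2, which coats vacuoles of intracellular pathogens (mm9 chromosome 3, from position 142283626), had 29.3, 19.0, 14.2 and 16.2 CPM in recombined libraries 1 to 4. It had 55.6, 37.4, 40.8 and 27.2 CPM in unrecombined and 36.6, 53.2, 39.9 and 49.96 CPM in wild type libraries. All recombined libraries lay below all wild type libraries, and recombined 1 was slightly above unrecombined 4. Gbp2 averaged 19.7 ± 6.74 CPM in recombined cells and 44.9 ± 7.90 CPM in wild type cells (SD, n = 4 each), a log2 fold change of -1.19 ± 0.266 (edgeR, adjusted p = 0.0161). Over unrecombined cells, at 40.3 ± 11.8 CPM, it was -1.03 ± 0.266 (edgeR, adjusted p = 0.0365), and each of the 4 pairs was lower, by -0.92, -0.97, -1.52 and -0.75. The call over wild type was lost without wild type 4 (adjusted p = 0.0548), without recombined 3 and 4 together (-0.90, 0.180) and with library weights in limma-voom (adjusted p = 0.0687). Over unrecombined cells it was lost without any 1 of recombined 2, 3 or 4, unrecombined 1, 2 or 3 or wild type 3 or 4 (adjusted p of 0.0551 to 0.136) and without recombined 3 and 4 together (-0.74, 0.349). It was also lost with limma-voom (0.0535), with library weights in limma-voom (0.0967), in a fit of only the 2 groups (0.0915) and without the salivary gland libraries (0.0852).

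Mx2, a dynamin-like GTPase, had 1.195, 0.953, 0.700 and 2.35 CPM in recombined, 4.38, 4.56, 2.23 and 4.65 CPM in unrecombined and 4.33, 4.95, 1.75 and 3.23 CPM in wild type libraries. Only recombined 4 overlapped the other groups, and the test gave -1.60 ± 0.509 over unrecombined cells (adjusted p = 0.0935) and -1.45 ± 0.507 over wild type (0.114). Without recombined 4 the difference from unrecombined cells passed (-2.05, adjusted p = 0.0412), and with each other library left out in turn it did not (edgeR, adjusted p up to 0.203). Mx1 had 1 read in all recombined libraries together, 49 in unrecombined, of which 36 were in library 2, and 28 in wild type libraries. Gbp3 had 1.62 to 6.51 CPM in recombined and 4.22 to 7.67 CPM in wild type libraries (-0.49 ± 0.430).

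In the ubiquitin-like system, no member passed, and the values of the modifier and its remover were unlike. Isg15, the ubiquitin-like protein attached to targets after interferon, had 1.77 to 5.60 CPM in recombined, 2.06 to 4.37 CPM in unrecombined and 2.28 to 4.16 CPM in wild type libraries. The log2 fold change was -0.04 ± 0.463 over wild type and -0.02 ± 0.463 over unrecombined cells. Usp18, the protease that removes Isg15 and blocks the interferon receptor, had 33 reads in recombined, 185 in unrecombined and 202 in wild type libraries, with none in recombined 3 and 4. All recombined libraries were below all others at 0 to 0.687 CPM, against 1.39 to 1.88 in unrecombined and 1.16 to 2.42 in wild type libraries, and the test did not pass (adjusted p of 0.168 and 0.124). Usp18 was called lower under 3 of 26 alternative settings over wild type and 3 of 27 over unrecombined cells. With each of the 12 libraries left out in turn it was never called. Trim25, the ubiquitin ligase that activates RIG-I, had 164, 109, 150 and 162 CPM in recombined, 171, 123, 200 and 167 CPM in unrecombined and 178, 175, 177 and 177 CPM in wild type libraries. Recombined libraries were all below the narrow wild type range, by a log2 value of -0.27 ± 0.166 that did not pass (adjusted p = 0.389).

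The other effectors held several of the largest values. Xaf1, a pro-apoptotic factor, had 6.99, 5.17, 0.431 and 1.196 CPM in recombined libraries, against 12.7, 12.1, 12 and 12.8 CPM in unrecombined and 11.5, 14.7, 14.5 and 12.4 CPM in wild type libraries. No recombined library came near the others, and the depth of the difference varied within the recombined group. Its log2 fold change was -1.93 ± 0.586 over wild type (edgeR, adjusted p = 0.0663) and -1.83 ± 0.584 over unrecombined cells (0.0940), and it passed against both without recombined 1 (-2.54 and -2.44, adjusted p of 0.0188 and 0.0258), with DESeq2 (0.0071 and 0.0139) and with limma-voom (0.0232 and 0.0262). Without recombined 3 and 4 the value over wild type was -1.14, which passed (adjusted p = 0.0465), and over unrecombined cells -1.03, which did not (0.0655). With the 5 libraries that hold salivary gland transcripts left out, the values were -3.92 and -3.88 (0.00653 and 0.0104). That setting keeps only recombined 3 and 4 of the recombined libraries, where Xaf1 was lowest. Rsad2, the antiviral enzyme viperin, had 0.247 to 4.44 CPM in recombined, 4.96 to 11.1 CPM in unrecombined and 4.50 to 18.2 CPM in wild type libraries, with no overlap (-1.99 ± 0.684 over wild type, adjusted p = 0.108). Parp14, an ADP-ribosyltransferase, had 66.6, 35.5, 45.3 and 58.3 CPM in recombined, 86.1, 56.2, 65.4 and 58.4 CPM in unrecombined and 70.5, 67.4, 72.0 and 64.2 CPM in wild type libraries. Its groups overlapped (-0.41 ± 0.201 over wild type, adjusted p = 0.268). Rtp4 (-1.55 ± 0.557) and the tether Bst2 (-1.95 ± 1.10) were lower over wild type without passing, and Ifi44 was lower than unrecombined cells in all 4 pairs (-1.12 ± 0.433, adjusted p = 0.175). Ifi35 is counted with Rnd2 and Vat1, so its 26.7 to 34.7 CPM in recombined and 29.8 to 52.3 CPM in wild type libraries need not be its own.

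The MHC class I members had mostly small differences, and none passed. The median over 8 members was -0.49 over wild type and -0.45 over unrecombined cells, with 6 of 8 lower in each. B2m, the light chain of every class I molecule, counted with BC002288, had 340, 306, 132 and 218 CPM in recombined libraries, against 443, 575, 247 and 398 CPM in unrecombined and 498, 567, 373 and 406 CPM in wild type libraries. All recombined libraries lay below wild type, each lay below its unrecombined partner, and the unrecombined range overlapped because library 3 was low in both sorted fractions. The test gave -0.89 ± 0.29 over wild type (edgeR, adjusted p = 0.0879) and -0.74 ± 0.289 over unrecombined cells (0.181). It passed over wild type without recombined 1 (-1.08, adjusted p = 0.0448) and with DESeq2 (-0.88, 0.0312), besides the replicate block. In edgeR it also passed over wild type with the salivary gland level as a covariate (-0.97, adjusted p = 0.015). The same was so without the salivary gland libraries (-1.25, edgeR, adjusted p = 0.0457). With each other library left out in turn it did not pass, and without recombined 3 and 4 it was -0.52 (edgeR, adjusted p = 0.484). H2-K1, a classical heavy chain, had 474, 428, 358 and 327 CPM in recombined, 440, 760, 465 and 420 CPM in unrecombined and 391, 740, 395 and 590 CPM in wild type libraries. The recombined libraries reached from the lowest values into the lower wild type libraries, and unrecombined 2 and wild type 2 stood high (-0.42 ± 0.240 over wild type, adjusted p = 0.360). H2-D1, counted with H2-B2, gave -0.57 ± 0.203 over wild type (adjusted p = 0.125), with 138 to 177 CPM in recombined, 175 to 270 in unrecombined and 167 to 293 in wild type libraries.

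**Figure D4:**
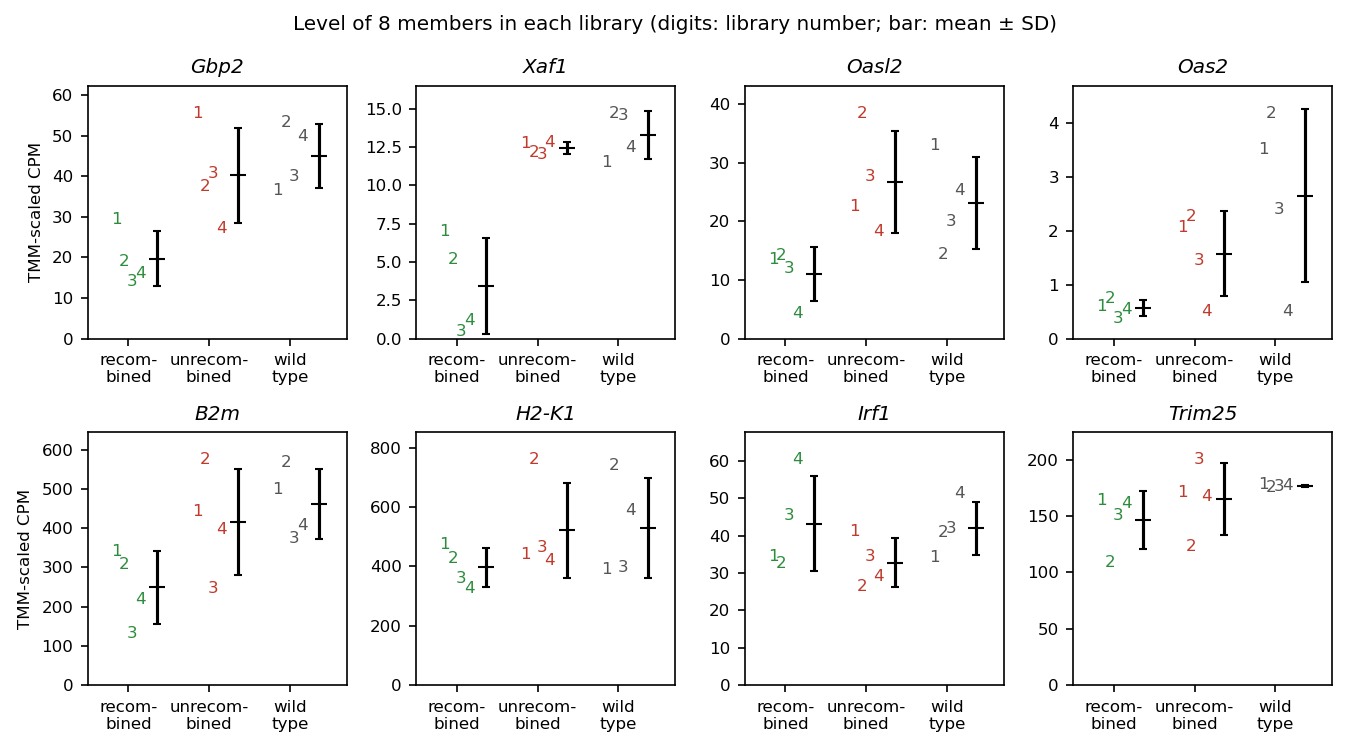
TMM-scaled CPM of 8 members in each library (digits are library numbers, bars are mean ± SD of 4 libraries), for recombined, unrecombined and wild type cells from left to right, each axis from 0. Gbp2, Xaf1 and B2m are lower in all recombined than in all wild type libraries, while H2-K1 and Irf1 overlap.

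The genes that make and load peptides gave values of both signs. Psmb8 and Psmb9, subunits of the immunoproteasome, had -0.77 ± 0.411 and -0.72 ± 0.320 over wild type (adjusted p of 0.317 and 0.221), and Psmb9 was below unrecombined cells in every library (-0.91 ± 0.321, adjusted p = 0.133). Of the peptide transporter subunits, Tap1 was at -0.28 ± 0.455 and Tap2 at 0.42 ± 0.464 over wild type (adjusted p of 0.794 and 0.672). Nlrc5, the transactivator of class I genes, had 8.43 to 11.5 CPM in recombined, 3.97 to 13.2 CPM in unrecombined and 6.85 to 10.8 CPM in wild type libraries (0.14 ± 0.355 over wild type). Within groups the 8 class I members moved together with a median pairwise r of 0.320 across the 12 libraries, against 0.096 for the 29 interferon members and 0.004 for all loci, as a description. H2-K1 and H2-D1 had r of 0.849, beside 0.857 for Ifi35 with H2-D1 and 0.772 for Ifi35 with H2-K1. Of the reads of H2-K1 and H2-D1, 0.256% and 0.914% stood in entries that name several loci. Whether class I heavy chains of close sequence share reads was not tested.

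Ligands and receptors of the pathway showed no called difference in any comparison. Of the 6 interferon genes found, Ifnb1, Ifna2, Ifnl2 and Ifnl3 had 1 read each in all 12 libraries together, Ifne had 22 and Ifnk 121, so all but Ifnk stayed below the low-count filter. Of 12 listed ligands and receptors found, 7 were tested and 0 passed (medians of -0.07 and -0.18 for recombined over wild type and over unrecombined cells). Ifngr1, the ligand-binding chain of the interferon gamma receptor, had -0.70 ± 0.248 over unrecombined cells (adjusted p = 0.134), and its partner Ifngr2 -0.72 ± 0.266 (0.155). Ifnlr1, the interferon lambda receptor, had 6.08 to 19.7 CPM in recombined and 21.3 to 24.5 CPM in wild type libraries (-0.68 ± 0.328, adjusted p = 0.261).

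Of 16 transducers and repressors, 2 rose and none fell over wild type (12.5%, against 6.55% of all loci in either direction), and 1 rose over unrecombined cells, near the share of all loci (6.25%, against 5.22%). Socs3, a feedback inhibitor of JAK signaling downstream of many cytokines, had 61.3, 67.0, 127 and 200 CPM in recombined libraries 1 to 4. It had 29.3 to 41.2 CPM in unrecombined and 36.1 to 61.9 CPM in wild type libraries, with wild type 4 slightly above recombined 1. The rise was 1.35 ± 0.328 over wild type (edgeR, adjusted p = 0.0240) and 1.66 ± 0.331 over unrecombined cells (0.00822). Without recombined 3 and 4 both calls were lost (0.52 and 0.84, adjusted p of 0.361 and 0.103), and the call over wild type was also lost without 1 of recombined 3 or 4 or wild type 1, 2 or 3 (0.0652 to 0.0764), with limma-voom (0.0563), with library weights (0.127) and in a fit of only the 2 groups (0.0644). Cish, another SOCS family inhibitor, rose by 1.04 ± 0.291 over wild type (adjusted p = 0.0478), a call that was kept with 1 of the 12 libraries left out in turn only for recombined 3 (range of the 12 values 0.72 to 1.2). It was also lost under 8 other settings, among them limma-voom (adjusted p = 0.0621) and the replicate block (0.0736).

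Further interferon-induced genes held calls in both directions. Of 58 tested, 5 fell and 1 rose over wild type (10.3%, against 6.55% of all loci in either direction), and 7 fell over unrecombined cells (12.1%, against 5.22%), with medians of -0.56 and -0.50. Ifi205 and Ifi204, DNA-binding PYHIN proteins, fell in both comparisons of recombined cells. Ifi205 had 0.0299, 0.183, 0.0538 and 0.289 CPM in recombined, 25.6, 27.7, 15.8 and 14.6 CPM in unrecombined and 4.67, 2.52, 13.8 and 13.6 CPM in wild type libraries. Ifi204 had 2.14 to 7.48 CPM in recombined, 22 to 50.7 CPM in unrecombined and 16.3 to 31.9 CPM in wild type libraries (-2.27 ± 0.390 over wild type, adjusted p = 0.00358). Both kept their calls with each of the 12 libraries left out in turn and without recombined 3 and 4. Without the salivary gland libraries, Ifi204 missed the threshold over wild type (-2.41, adjusted p = 0.0512), as did Ifi205 with library weights (-6.22, adjusted p = 0.0758). Iigp1, an immunity-related GTPase, fell over wild type (log2 -1.13 ± 0.3002, adjusted p = 0.0385) and over unrecombined cells (-1.61 ± 0.304, 0.00577). Slfn8 fell over wild type (-2.49 ± 0.533, 0.0127), but not without recombined 3 and 4 (-2.04, 0.109), with limma-voom (0.0538), with library weights (0.159), in a fit of only the 2 groups (0.0507) or without the salivary gland libraries (0.0587). Herc6, the mouse ligase that attaches Isg15, fell over wild type (-0.74 ± 0.203, adjusted p = 0.0454), and Ifitm1 fell over unrecombined cells (-3.47 ± 0.717, 0.0105) and had -2.39 over wild type (0.0551). Herc6 and Slfn8 also fell over unrecombined cells (-0.86 ± 0.203 and -2.18 ± 0.527, edgeR, adjusted p of 0.0237 and 0.0264). These 2 calls held for 8 and 7 of the 12 libraries left out in turn. Casp1, the inflammasome protease, rose over wild type (1.61 ± 0.446, 0.0458). The calls of Iigp1, Herc6 and Casp1 over wild type held for 4, 1 and 3 of the 12 libraries left out in turn.

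Of 12 tested nucleic acid sensing genes, which include the adaptors and kinases behind the sensors, none passed in any comparison. Tlr3, a sensor of double-stranded RNA, had the smallest p over wild type (18.9 ± 8.19 CPM in recombined, 34.6 ± 6.95 CPM in wild type cells, adjusted p = 0.167), and the kinase Ikbke had the opposite sign (log2 1.00, 0.173). Of 19 further tested genes on the class I pathway list none passed either, with medians of -0.24 and -0.21 over wild type and unrecombined cells. On that list Sppl2a (-0.62 ± 0.235), whose place in the class I pathway is not established, and the nonclassical heavy chain H2-T22 (-0.75 ± 0.317) led over wild type. Their adjusted p was 0.147 and 0.196. Others named by small p in some comparison were Irf2, Myd88, Tmem173, Fcgrt and H2-Q10, with log2 values over wild type of -0.27, -0.50, -0.39, -0.13 and -2.03, none of which passed.

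Markers of other cell types moved between the groups beside these values. In bulk libraries, fewer cells of a type and less RNA per cell cannot be told apart. Macrophage and dendritic markers, whose cells are rich in MHC and interferon-induced genes, summed to 41.5 to 152 CPM in recombined, 54.4 to 123 CPM in unrecombined and 71.1 to 201 CPM in wild type libraries. Of 15 tested, 4 fell over wild type (26.7%, against 2.38% of all loci called lower) and 0 over unrecombined cells (0%, against 2.14%). The leukocyte marker Ptprc had 0.700 to 1.70 CPM in recombined and 4.26 to 12.7 CPM in wild type libraries, and Cd74 had 0.915 to 4.11 CPM in recombined and 6.78 to 25 CPM in wild type libraries. Other markers of the list were not lower, such as Cd68, at 5.52 to 13.2 CPM in recombined and 4.50 to 7.72 CPM in wild type libraries. C1qa and Fcgr1, at 0 in all 4 recombined libraries, were at most 0.502 CPM in any library. Cd14, which is also on the luminal progenitor list, entered the sum with 21.4 to 125 CPM in recombined and 28.9 to 77.7 CPM in wild type libraries. Endothelial markers summed to 67.7 to 135 CPM in recombined, 141 to 243 in unrecombined and 113 to 182 CPM in wild type libraries. The T, NK, B and plasmacytoid dendritic list summed to 137 to 188, 261 to 393 and 204 to 211 CPM in the same order of groups, mostly from Tcf4 and Ccr9. Cd3g, Zap70 and Ms4a1 were at 0 in all 4 recombined libraries and at or near 0 in the others (at most 0.238 CPM), while Cd4 reached 5.72 CPM and Cd79a 1.45 CPM in recombined libraries, against 2.09 and 0.735 CPM in wild type libraries.

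Epithelial and stromal lists moved by more. Fibroblast markers summed to 420 to 1052 CPM in recombined, 7487 to 10315 in unrecombined and 2282 to 4825 CPM in wild type libraries. Basal and myoepithelial markers summed to 2377 to 8547, 900 to 1550 and 1297 to 1546 CPM, and luminal hormone-sensing markers to 1170 to 2632, 4043 to 5910 and 4013 to 7677 CPM, in the same order of groups. The fibroblast sum separated unrecombined from wild type libraries. In edgeR no member passed between these 2 groups, but neither did any of the 14 fibroblast markers (median log2 1.41) or any other locus. The test of the members between these groups therefore cannot be set against the fibroblast sums. The part of any of these cell types in the values of the members was not tested.

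**Figure D5:**
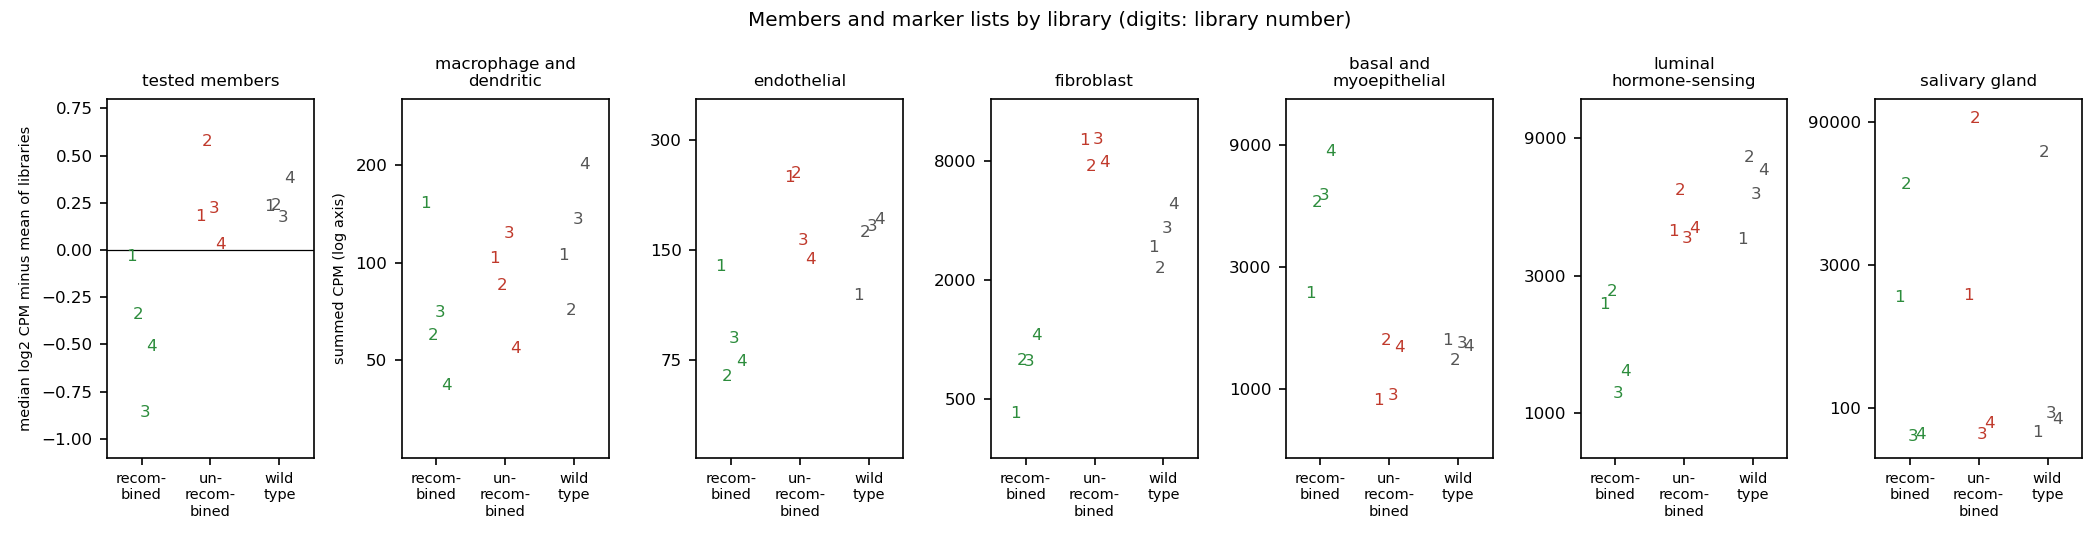
Median deviation of the tested members (left panel, log2 CPM minus the mean of the 12 libraries) and summed CPM of 6 marker lists (log axes) in each library, digits being library numbers. The median of the members lies below 0 in all 4 recombined libraries, though in recombined 1 only slightly (-0.04, with 20 of 37 members below their mean). Endothelial, fibroblast and luminal hormone-sensing sums are mostly low in the same libraries, and salivary gland sums are high in 5 libraries of all 3 groups.

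Members with and without an ISRE core in the promoter had similar ranges of values. Over wild type, the 13 members with a match had log2 values of -1.99 to -0.04 with a median of -0.62, all of them on the lower side, and the 15 without had -1.98 to 0.16 with a median of -0.41. Over unrecombined cells the medians were -0.74 and -0.50. Gbp2, B2m and Rsad2 hold a core, and so do Isg15 and Ifit1 with values near 0 or unlike between comparisons.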

How the data were processed

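The authors deposited a table of raw read counts per gene for the 12 libraries. Per the submitters' processing notes it was made with STAR, HTSeq 0.3.1 and the mm9 build. Strand use and annotation are not given in the sources used here. Per the labels' protocols, cells were sorted by FACS and total RNA was extracted. Of 36635 entries, 16521 name several loci and were left out of the tests, and some of the other 20114 join overlapping genes.

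Counts were TMM-scaled and filtered with filterByExpr, and all 12 libraries were fitted by group with edgeR 4.0.16 (quasi-likelihood, robust, R 4.3.3). Adjusted p is Benjamini-Hochberg over 14039 loci, with a threshold of 0.05, and the code was tested on simulated data. DESeq2 1.42.0, limma 3.58.1 and the other settings were alternatives. Recombined and unrecombined libraries of the same number deviated together (r of 0.239, 0.399, 0.244 and 0.298). Wild type numbers 2, 3 and 4 also deviated with theirs (0.185, 0.109 and 0.125 with recombined, 0.312, 0.157 and 0.159 with unrecombined), but number 1 did not (-0.0314 and 0.00248). Pairing was read only where every pair was over 0.1, so only recombined and unrecombined libraries were taken as paired. Members and lists were chosen with earlier results of these data known. Values per library are given for members past the threshold, the 4 smallest p-values in each comparison and the highest member of each role, and other members were described besides. Pathway genes were named when past the threshold (at most 6) or among the 2 smallest p-values of their list in a comparison. A withheld result is not reported here.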

Additional observations from a re-analysis of the deposited data

Results flagged for a closer look

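Groups of 4 libraries were looked at for 38 members in 3 groups, 114 in all. In 11 of them, 1 library lay far from the other 3 by Dixon's test at 95%. About 1 in 20, or 5.7, would arise by chance if the groups were independent and normally distributed. The members share the same 12 libraries, so 11 flags cannot be read as an excess over 5.7. Unrecombined library 2 was high for 4 MHC class I members: Psmb8 had 37.9 CPM there and 23.5 to 23.7 in the other unrecombined libraries, Psmb9 20.8 and 9.85 to 11.5, Tap2 19.6 and 5.54 to 7.37, and H2-K1 760 and 420 to 465. This library also had the highest salivary gland sum of all 12, at 96344 CPM, and the part of that in these values was not tested. Unrecombined library 3 was low for Irf7, with 0.934 CPM beside 2.17 to 2.31, and for Mx2, with 2.23 beside 4.38 to 4.65. Recombined library 4 was high for Stat2, with 48.4 CPM beside 18.6 to 23.7, and for Ifit3, with 3.63 beside 0 to 0.513. Rsad2 had 18.2 CPM in wild type library 2 and 4.49 to 6.56 in the others. Mx1 had 0.0367 CPM, or 1 read, in recombined library 2 and none in the others, and 0.579 CPM in wild type library 1 beside 0.116 to 0.175.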

How the results depend on the processing

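Over wild type, 920 loci passed for recombined cells, against 1617 with DESeq2, 594 with only the 2 groups fitted and 248 without recombined 3 and 4. The members past the threshold numbered 1, against 10 with DESeq2, 3 with limma-voom, 2 with the library number series as a covariate, 5 without the salivary gland libraries and 4 with the salivary gland level as a covariate. Over unrecombined cells, 733 loci became 1349 with DESeq2 and 282 without recombined 3 and 4, and the 1 member became 6 with DESeq2, 2 with limma-voom, 0 with only the 2 groups fitted, 2 with the series covariate, 0 without recombined 3 and 4, 3 without the salivary gland libraries and 2 with the salivary gland covariate. For unrecombined over wild type cells, 0 loci became 78 with DESeq2, 18 with limma-voom, 61 with library weights and 8 with only the 2 groups fitted. With the replicate block, 4 members passed in each comparison of recombined cells, and 1194, 1 and 980 loci passed for recombined over wild type, unrecombined over wild type and recombined over unrecombined. The block with only the 2 paired groups fitted, chosen after seeing the data, gave 3 members. With each library left out, loci ranged from 502 to 1217, from 0 to 0 and from 449 to 1044 in the same order, and members from 1 to 6, from 0 to 0 and from 0 to 5. The median of the members stayed below 0 in both comparisons of recombined cells under every setting run (-0.655 to -0.438 over wild type, -0.759 to -0.423 over unrecombined cells), and lay between -0.143 and 0.0065 for unrecombined over wild type. Values near 0 changed sign over wild type: Irf1 with upper quartile scaling (-0.0319), limma-voom (-0.00792), library weights (-0.19), the series covariate (-0.0554) and without recombined 3 and 4 (-0.334), and from -0.165 to 0.154 with 1 library left out. Irf9 did so with upper quartile scaling (-0.0153) and from -0.0955 to 0.168 with 1 library left out, and Oas1a without the salivary gland libraries (0.00355). The causes were not tested. Depth limits the members under 1 CPM, where few reads set a fold change.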
